A study of Homo sapiens with 12 samples.

Results

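Expression of 37 genes was described across 4 treatments of HepG2 cells, an established human hepatoma line: 22 genes of glycolysis and its supply and exit of carbon, and 15 hypoxia-responsive genes. The genes were chosen by symbol from the deposited transcript table, which holds 28256 gene symbols, and each was represented by its transcript with the highest total over the 12 RNA-seq libraries. All 37 passed the filter on low counts that left 13166 genes for testing. The cells, wild type per the labels, spent 24 h in charcoal-stripped serum before a treatment of 24 h, with 3 libraries in each group. The groups were vehicle (DMSO, 0.1%), dexamethasone (Dex, 50 nM), a synthetic agonist of the glucocorticoid receptor, KLA (labelled as 100 ng/µl, a unit taken as given) and both agents (DexKLA). All groups shared the stripped serum, and no label describes low oxygen. The labels do not say whether the libraries of a group came from separate cultures, so the p-values reflect the spread among these libraries alone, which could be technical.

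Glycolysis converts glucose to pyruvate in the cytosol, and lactate dehydrogenase and the lactate exporter carry pyruvate's carbon out of the cell when it does not enter the mitochondria. Many of its enzymes are transcribed under hypoxia-inducible factors (HIF), dimers of an oxygen-labile alpha subunit and ARNT. The EGLN prolyl hydroxylases mark the alpha subunit for VHL-dependent degradation while oxygen is present. HIF binds short elements around RCGTG, where R is A or G. Hepatocytes also run the reverse pathway, gluconeogenesis, which glucocorticoids are known to promote in liver.

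Library totals ran from 3317740 to 20933501 counts. Every KLA library (15998657 or more) was deeper than every DMSO library (5277463 or less), so depth and this treatment cannot be told apart. With every library thinned to the smallest total, all 13 calls described below were still made. The 37 genes took 1.74% to 2.02% of a library's counts. On the first principal component (27.9% of the variance), DMSO replicate 1 lay farthest out on one side at -39.6 and KLA replicate 3 farthest on the other at 23.4. Results are therefore also given without DMSO replicate 1. All 9 hepatocyte and hepatoma markers were detected, with summed levels of 93678 to 110719 CPM (counts scaled to a common library total by the trimmed mean of M values) under DMSO, 132183 to 138593 under Dex, 123897 to 130809 under KLA and 119161 to 160918 under DexKLA. These sums moved with treatment, and their part in the results below was not tested. COL1A2, KDR, CD3E and CD163, markers of fibroblasts, endothelium, T cells and macrophages, had 0 counts in every library, and the leukocyte marker PTPRC had 0 to 1. The immune list still summed to 3748 to 4879.9 CPM, nearly all from LYZ. In the order DMSO, Dex, KLA and DexKLA, its summed level ran from 3748 to 4323, 4065 to 4255, 4400 to 4879.9 and 3884 to 4456 CPM. The fibroblast list summed to 15.8 to 25.9 CPM, nearly all from ACTA2, with 20.6 to 25.9 CPM under DMSO and 20.4 or less in every treated library. The endothelial list summed to 3.02 to 5.54 CPM. MALAT1 and NEAT1, nuclear RNAs taken as signs of RNA quality, had log2 changes of 0.32 ± 0.21 and 0.06 ± 0.19 under Dex, 0.56 ± 0.20 and 0.15 ± 0.18 under KLA and 0.38 ± 0.21 and 0.31 ± 0.18 under DexKLA. Neither was called by edgeR or DESeq2, MALAT1 under KLA had an unadjusted p under 0.05 (edgeR adjusted p = 0.0674), and their part in the results was not tested.

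In a model across all genes, 3 of the 37 genes rose under Dex relative to DMSO, 6 rose under KLA and 4 rose under DexKLA. None was called lower. Of all genes tested, 2.05% were called in either direction for Dex, 13.7% for KLA and 4.22% for DexKLA (edgeR, quasi-likelihood, p adjusted by Benjamini and Hochberg). In the higher direction alone, those shares were 1.22%, 7.78% and 2.84%, against 8.11%, 16.2% and 10.8% of the 37 genes. In the lower direction they were 0.835%, 5.94% and 1.38%, against 0% of the 37 genes. At an unadjusted p under 0.05 stood 24.3%, 24.3% and 27.0% of the 37 genes, beside 20.4%, 31.6% and 21.4% of all genes, and nothing is read from shares this near the background. Of the genes at that p, 0 of the 37 genes were lower under Dex, 0 under KLA and 2 under DexKLA (GPI and ALDOA), and DESeq2 called 0 lower in each. The median log2 change of the 37 genes was 0.08 under Dex, 0.09 under KLA and 0.07 under DexKLA, beside -0.01, -0.02 and -0.02 for all genes tested. Scaling by library size alone moved the median of all genes to -0.11, -0.13 and -0.12 and that of the 37 genes to -0.02, -0.02 and -0.04, so the sign of these small medians depends on the scaling. They also depended on single libraries. The Dex median was 0.04 without DMSO replicate 2 and 0.17 without DMSO replicate 3. The KLA median was -0.02 without KLA replicate 1, 0.19 without KLA replicate 2 and 0.18 without DMSO replicate 3. The DexKLA median was -0.03 without DexKLA replicate 2 and 0.03 without DMSO replicate 2, and it was 0.14, 0.17 and 0.18 without DexKLA replicate 1, DexKLA replicate 3 and DMSO replicate 3. These 3 comparisons share the 3 DMSO libraries, and their values stand side by side only. In bulk RNA, fewer cells of a type and less RNA per cell cannot be told apart.

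**Figure D1:**
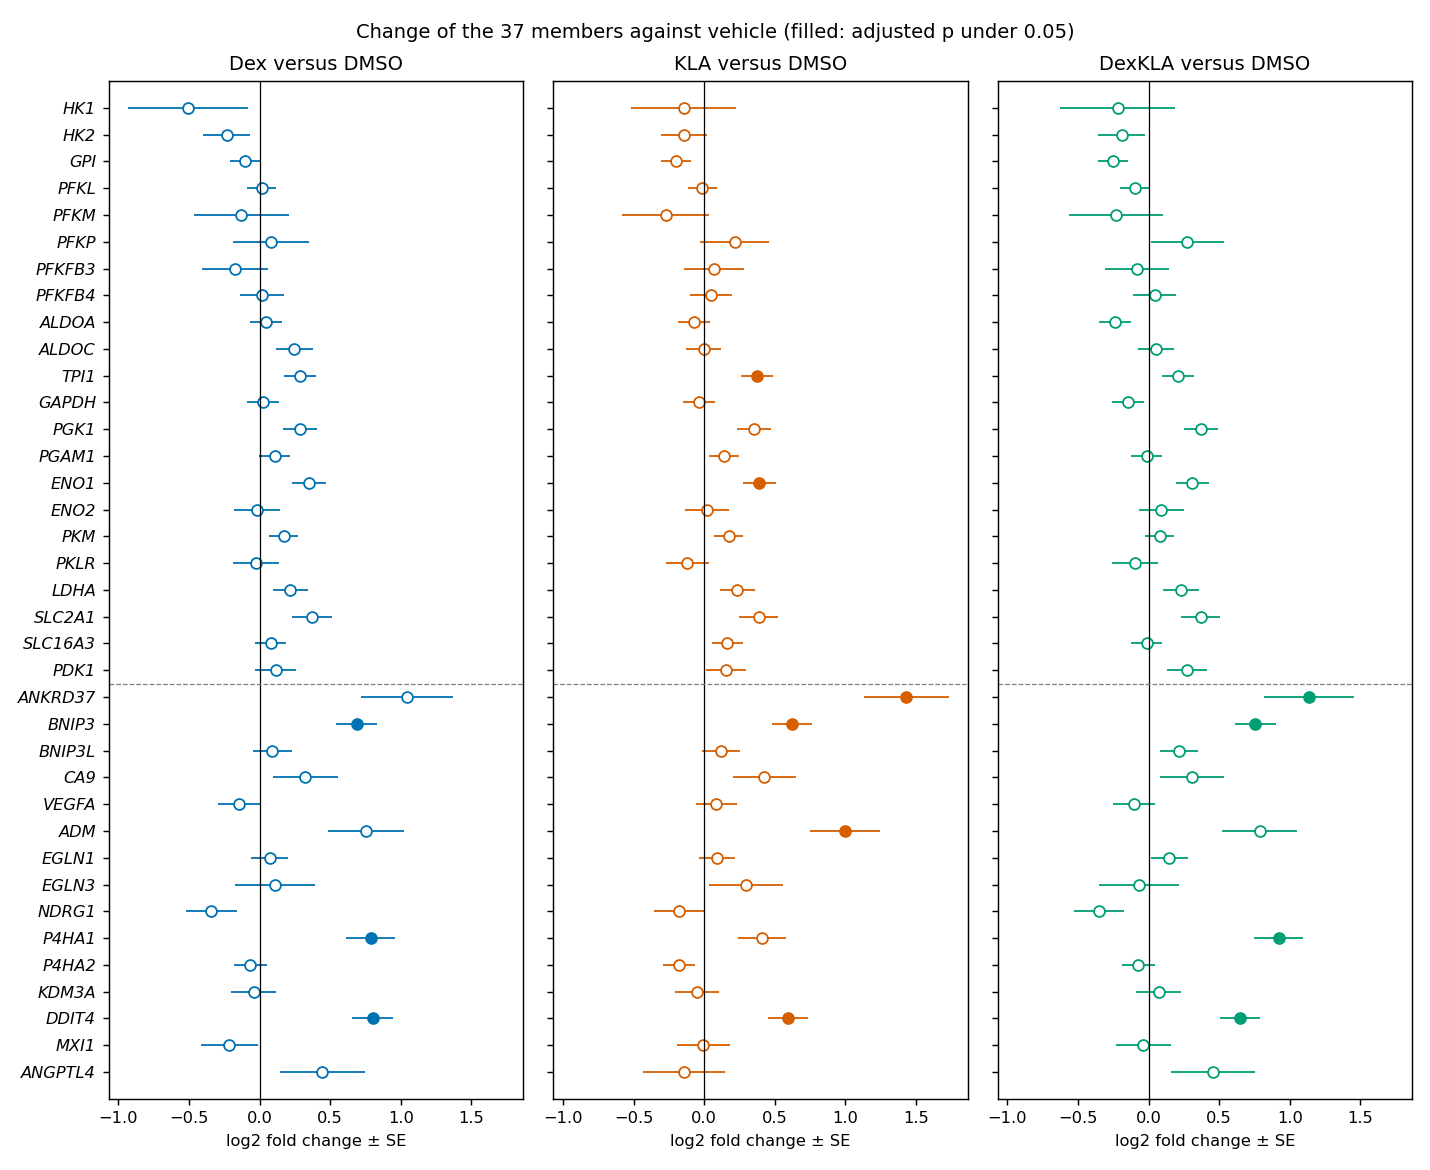
Fitted log2 fold change of each of the 37 genes (rows, with glycolysis genes above the dashed line and hypoxia-responsive genes below it) against DMSO on the x axis for Dex, KLA and DexKLA, with bars for the standard error and filled points for genes called at an adjusted p under 0.05. The filled points all lie to the right of 0, and ANKRD37 under KLA has the highest value at 1.43.

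The 22 glycolysis genes and the 15 hypoxia-responsive genes divided unevenly among the calls. Under Dex and under DexKLA, 0 of the 22 glycolysis genes were called by edgeR (4 and 5 had an unadjusted p under 0.05, and DESeq2 called ENO1 under Dex and ENO1 and PGK1 under DexKLA), while under KLA ENO1 and TPI1 rose. DESeq2 called 4 of the 22 under KLA, ENO1, PGK1, SLC2A1 and TPI1. Of all genes tested, DESeq2 called 4.94% for Dex, 16.3% for KLA and 6.99% for DexKLA. It gave 3 of the 22 no adjusted p in each of these comparisons. Among the hypoxia-responsive genes, 3 of 15 rose under Dex, 4 under KLA and 4 under DexKLA. As shares called higher by edgeR under Dex, KLA and DexKLA, these were 20%, 26.7% and 26.7%. The shares were 0%, 9.09% and 0% for the glycolysis genes and 1.22%, 7.78% and 2.84% for all genes. The KLA share of the glycolysis genes is near that of all genes, and nothing is read from it. BNIP3 and DDIT4 were called in all 3 comparisons. Whether the calls differed between these arms of the list was not tested.

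Glucose enters through the facilitative transporter encoded by SLC2A1, whose level was 673, 893 and 749 CPM under DMSO, 1047, 922 and 1028 under Dex, 1231, 977 and 817 under KLA and 927, 1137 and 931 under DexKLA. All 3 Dex libraries and all 3 DexKLA libraries lay above all 3 DMSO libraries, whereas KLA replicate 3 fell within the DMSO range. The log2 changes were 0.37 ± 0.14 (SE) under Dex, 0.39 ± 0.14 under KLA and 0.37 ± 0.14 under DexKLA, with edgeR adjusted p of 0.136, 0.0643 and 0.125, and edgeR called none, while DESeq2 called the KLA change (log2 change 0.40, DESeq2 adjusted p = 0.0317). Without KLA replicate 3 the KLA change was called (log2 change 0.52, edgeR adjusted p = 0.0349), and so it was without DexKLA replicate 3 (log2 change 0.39, edgeR adjusted p = 0.0460). Those fits called 4.6% and 18.4% of all genes for KLA, beside 13.7% in the main fit. The fit without DexKLA replicate 3 left out no KLA or DMSO library. SLC2A1-AS1 overlaps SLC2A1 on the other strand, and reads from such pairs cannot be separated, since library strandedness is not given in the sources used here.

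Hexokinase traps glucose as glucose 6-phosphate, and HK2 was the abundant form here, at 27.4 CPM per kb of transcript averaged over the 12 libraries against 0.492 for HK1, which had 3 to 38 counts per library. HK2 was at 188, 205 and 244 CPM under DMSO, 209, 151 and 187 under Dex, 241, 172 and 165 under KLA and 158, 243 and 161 under DexKLA. The groups overlapped, and the log2 changes of HK2 were -0.23 ± 0.17, -0.14 ± 0.16 and -0.19 ± 0.17 for Dex, KLA and DexKLA against DMSO, none called. GPI, the next enzyme, averaged 241 ± 18.7 CPM under DMSO, 223 ± 12.8 under Dex, 209 ± 18.5 under KLA and 202 ± 18.6 under DexKLA (SD, 3 libraries), with all DexKLA libraries below all DMSO libraries and an edgeR adjusted p of 0.173.

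Phosphofructokinase commits the sugar to glycolysis, and its liver form PFKL stood at 88.8 CPM per kb against 1.93 for the platelet form PFKP and 0.890 for the muscle form PFKM. PFKL averaged 260.2 ± 21 CPM under DMSO, 263 ± 14.3 under Dex, 258 ± 15.3 under KLA and 243 ± 19 under DexKLA. PFKFB3 and PFKFB4, which make the activator fructose 2,6-bisphosphate, stood at 4.30 and 21.8 CPM per kb. None of these 5 genes was called in any comparison, and their log2 changes against DMSO ran from -0.27 to 0.27.

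The aldolase step was carried by ALDOA at 455 CPM per kb, with ALDOC at 34.3. ALDOA averaged 1628 ± 171 CPM under DMSO, 1676 ± 189 under Dex, 1546 ± 95.3 under KLA and 1381 ± 56.1 under DexKLA. ALDOC averaged 52 ± 5.68 CPM under DMSO, 61.2 ± 3.06 under Dex, 51.7 ± 6.77 under KLA and 54 ± 6.77 under DexKLA, with all Dex libraries above all DMSO libraries and no call. The 3 DexKLA libraries of ALDOA were below all DMSO and all Dex libraries, at log2 changes of -0.24 ± 0.11 against DMSO and -0.28 ± 0.11 against Dex, and neither was called (edgeR adjusted p of 0.231 and 0.695).

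TPI1 encodes triosephosphate isomerase (chromosome 12, 6867420 to 6870946, plus strand, hg38). Its level was 827, 864 and 888 CPM under DMSO, 967, 1165 and 1016 under Dex, 1113, 1025 and 1209 under KLA and 1078, 1043 and 861 under DexKLA. Every KLA library exceeded every DMSO library, and TPI1 rose under KLA by 0.38 ± 0.11 on the log2 scale (1.30-fold, edgeR adjusted p = 0.0329). Under Dex the change was 0.29 ± 0.11 and under DexKLA 0.21 ± 0.11, with DexKLA replicate 3 inside the DMSO range, and neither was called. The KLA call was lost in 6 of 12 fits that left out 1 library (DMSO replicates 1, 2 and 3, Dex replicate 3 and KLA replicates 1 and 3), with edgeR adjusted p of 0.0517 to 0.123 and log2 changes of 0.32 to 0.40. Here and below, libraries named after a lost or gained call were left out 1 at a time. SPSB2 overlaps TPI1 on the other strand, and 4 pseudogenes in GENCODE 29 are named after it.

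GAPDH, the dehydrogenase that reduces NAD, was at 1888, 1633 and 1608 CPM under DMSO, 1566, 1935 and 1712 under Dex, 1744, 1553 and 1703 under KLA and 1525, 1600.4 and 1507 under DexKLA. Its DexKLA libraries all lay below the DMSO libraries, at a log2 change of -0.15 ± 0.11 that was not called, and Dex and KLA gave 0.02 ± 0.11 and -0.04 ± 0.11. GENCODE 29 names 62 pseudogenes after GAPDH, so how its reads were shared among copies is uncertain. PGK1, the kinase that makes the first ATP of the pathway, averaged 786 ± 100.3 CPM under DMSO, 959 ± 43.8 under Dex, 1003 ± 126 under KLA and 1018 ± 99.5 under DexKLA. Its Dex and DexKLA libraries all exceeded the DMSO libraries, and its edgeR adjusted p values were 0.185, 0.0543 and 0.0789 for Dex, KLA and DexKLA. PGK1 was called under KLA without KLA replicate 2 (log2 change 0.45, edgeR adjusted p = 0.0251) and without DexKLA replicate 3 (log2 change 0.35, edgeR adjusted p = 0.0268). It was called under DexKLA without KLA replicate 3 (log2 change 0.37, edgeR adjusted p = 0.0447) and without DexKLA replicate 3 (log2 change 0.45, edgeR adjusted p = 0.0179). Those fits called 14.4% and 18.4% of all genes for KLA (main fit 13.7%) and 8.39% and 11.4% for DexKLA (main fit 4.22%). PGAM1 averaged 105 CPM under DMSO, and its DexKLA libraries (105, 105 and 104 CPM) lay below all Dex and all KLA libraries without a call.

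ENO1 encodes enolase (chromosome 1, 8861000 to 8878686, minus strand), and it had the highest level per length of the 37 genes, 1418 CPM per kb. Its libraries held 3458, 3877 and 3765 CPM under DMSO, 4479, 5023 and 4637 under Dex, 4926, 4448 and 5186 under KLA and 4849, 4847 and 4057 under DexKLA. All treated libraries were above all DMSO libraries. ENO1 rose under KLA by 0.39 ± 0.12 on the log2 scale (1.31-fold, edgeR adjusted p = 0.0320), and the changes of 0.35 ± 0.12 under Dex and 0.31 ± 0.12 under DexKLA had edgeR adjusted p of 0.102 and 0.129. The KLA call was lost in 6 of 12 fits without 1 library (DMSO replicates 1, 2 and 3, Dex replicate 3 and KLA replicates 1 and 3), with edgeR adjusted p of 0.0512 to 0.133 and log2 changes of 0.34 to 0.43. Without DexKLA replicate 3, ENO1 was also called under Dex (log2 change 0.35, edgeR adjusted p = 0.0243) and under DexKLA (log2 change 0.39, edgeR adjusted p = 0.0143). That fit called 5.67% of all genes for Dex and 11.4% for DexKLA, beside 2.05% and 4.22% in the main fit. ENO2, the neuronal isozyme, stood at 17.5 CPM per kb and its groups overlapped throughout.

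Pyruvate kinase makes pyruvate, and in this hepatoma line the PKM gene stood at 682 CPM per kb against 8.66 for PKLR, the form of adult liver and red cells. PKM was at 1421, 1461 and 1471 CPM under DMSO, 1616, 1662 and 1622 under Dex, 1647, 1592 and 1668 under KLA and 1576, 1640.0 and 1381 under DexKLA. Every Dex and every KLA library exceeded every DMSO library, by log2 changes of 0.17 ± 0.10 and 0.17 ± 0.10 that were not called (edgeR adjusted p of 0.348 and 0.253), and DexKLA replicate 3 was the lowest of all 12 libraries. PKLR was at 27.6, 25.1 and 28.4 CPM under DMSO, 26.1, 31 and 20.2 under Dex, 22.8, 23.9 and 27.8 under KLA and 21.1, 24.6 and 29.4 under DexKLA, with overlapping groups and log2 changes of -0.03 ± 0.16, -0.12 ± 0.16 and -0.10 ± 0.16.

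LDHA, which turns pyruvate into lactate, was at 1694, 2142 and 2085 CPM under DMSO, 2168, 2542 and 2176 under Dex, 2226, 2066 and 2679 under KLA and 2403, 2387 and 2152 under DexKLA. All Dex and DexKLA libraries lay above the DMSO libraries, KLA replicate 2 did not, and the log2 changes of 0.22 ± 0.12, 0.24 ± 0.12 and 0.23 ± 0.12 for Dex, KLA and DexKLA were not called (edgeR adjusted p of 0.327, 0.200 and 0.297). SLC16A3, the lactate exporter, averaged 967 ± 57.4 CPM under DMSO, 1020.1 ± 70.5 under Dex, 1083 ± 93.8 under KLA and 959 ± 99.9 under DexKLA and its groups overlapped. PDK1, the kinase that inhibits pyruvate dehydrogenase, was at 74.3, 102 and 104 CPM under DMSO, 104, 95.5 and 105 under Dex, 119, 91.7 and 102 under KLA and 95.7, 139 and 106 under DexKLA. DMSO replicate 1 was the lowest library for PDK1 and DexKLA replicate 2 the highest, the groups overlapped, and the log2 changes were 0.11 ± 0.14, 0.15 ± 0.14 and 0.27 ± 0.14.

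**Figure D2:**
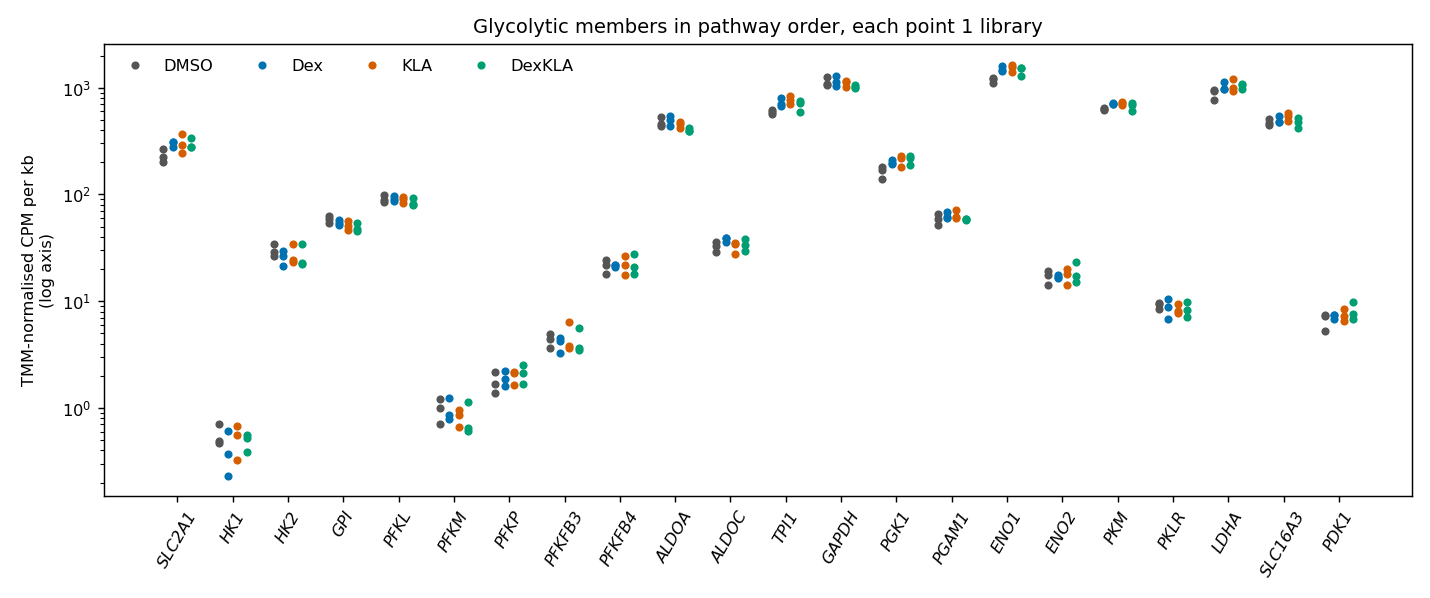
TMM-normalised CPM per kb of transcript (y axis, log scale) of the 22 glycolysis genes in pathway order (x axis), with 1 point per library coloured by group. The points of a gene lie close together beside the spread between genes, which runs from 0.492 for HK1 to 1418 for ENO1 as means over the 12 libraries.

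Within each enzyme step 1 gene accounted for most of the transcripts on the per-length scale: HK2, PFKL, ALDOA, ENO1 and PKM each exceeded every other of the 37 genes at their step. Among the 22 glycolysis genes, by mean over the 12 libraries, ENO1, GAPDH (1099) and LDHA (998) led, followed by TPI1 (692), PKM (682), SLC16A3 (495), ALDOA (455), SLC2A1 (282) and PGK1 (196 CPM per kb). Some neighbours in this order changed places between groups. Under DMSO PKM was higher per kb (633 against 592), and under KLA TPI1 was (769 against 714). GAPDH was above LDHA under DMSO (1129 against 885) and below it under DexKLA (1019 against 1037), and ALDOA and SLC16A3 were level under DMSO (476 and 475 CPM per kb). The order between genes was not tested, and multi-copy pseudogenes of GAPDH, PGAM1, LDHA, PKM, ENO1, TPI1 and ALDOA make these levels uncertain.

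DDIT4 encodes REDD1, an inhibitor of mTORC1 known to respond to hypoxia and to glucocorticoids (chromosome 10, 72273924 to 72276036, plus strand). Its libraries held 97.7, 79.8 and 69 CPM under DMSO, 141, 137 and 150.0 under Dex, 136, 121 and 114 under KLA and 153, 134 and 98.9 under DexKLA. All 9 treated libraries exceeded the 3 DMSO libraries, although DexKLA replicate 3 and DMSO replicate 1 lay close together. DDIT4 rose by 0.80 ± 0.14 on the log2 scale under Dex (1.74-fold, edgeR adjusted p = 0.00444), by 0.59 ± 0.14 under KLA (edgeR adjusted p = 0.0133) and by 0.65 ± 0.14 under DexKLA (edgeR adjusted p = 0.0165). The Dex call was made in all 12 fits that left out 1 library. The KLA call was lost without DMSO replicates 1 and 3 (edgeR adjusted p of 0.0628 to 0.0724) and the DexKLA call without DMSO replicates 2 and 3 and DexKLA replicates 1 and 2 (edgeR adjusted p of 0.0587 to 0.130), with log2 changes of 0.48 to 0.73 and 0.50 to 0.63. DDIT4-AS1 overlaps on the other strand.

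BNIP3, a mitochondrial receptor for mitophagy (chromosome 10, 131967683 to 131982013, minus strand), was at 302, 347 and 413 CPM under DMSO, 578, 573 and 559 under Dex, 571, 460.1 and 605 under KLA and 635, 709 and 453 under DexKLA. No treated library reached down to the DMSO range. BNIP3 rose by 0.69 ± 0.15 on the log2 scale under Dex (1.61-fold, edgeR adjusted p = 0.0162), by 0.62 ± 0.14 under KLA (edgeR adjusted p = 0.0122) and by 0.76 ± 0.15 under DexKLA (edgeR adjusted p = 0.00765). The Dex call was lost without any 1 of DMSO replicates 1 and 2 and Dex replicates 2 and 3 (edgeR adjusted p of 0.0640 to 0.121, log2 changes of 0.58 to 0.70). The KLA call was lost without DMSO replicate 1 (log2 change 0.52, edgeR adjusted p = 0.0870), and the DexKLA call without DMSO replicate 1 and DexKLA replicate 2 (log2 changes of 0.62 and 0.65, edgeR adjusted p of 0.0608 to 0.0875). GENCODE 29 names 39 pseudogenes after BNIP3. Its relative BNIP3L, which serves the same process, averaged 137 ± 27 CPM under DMSO, 146 ± 4.24 under Dex, 149 ± 17.1 under KLA and 159.8 ± 28.2 under DexKLA, with overlapping groups and no call.

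P4HA1, the catalytic subunit of collagen prolyl 4-hydroxylase (chromosome 10, 73007222 to 73096974, minus strand), was at 365, 469.7 and 513 CPM under DMSO, 825, 702 and 801 under Dex, 669.8, 578 and 543 under KLA and 973, 1035 and 550.3 under DexKLA. All treated libraries exceeded all DMSO libraries, and within DexKLA replicate 3 was well below the other 2. P4HA1 rose by 0.79 ± 0.17 on the log2 scale under Dex (1.72-fold, edgeR adjusted p = 0.0195) and by 0.92 ± 0.17 under DexKLA (1.89-fold, edgeR adjusted p = 0.00654). Under KLA alone its change of 0.41 ± 0.17 was not called (edgeR adjusted p = 0.104) and was called without DexKLA replicate 3 (log2 change 0.41, edgeR adjusted p = 0.0199). That fit called 18.4% of all genes for KLA, beside 13.7% in the main fit. The Dex call was lost without DMSO replicates 1 and 2 and Dex replicate 3 (log2 changes of 0.66 to 0.82, edgeR adjusted p of 0.0570 to 0.142). The DexKLA call was lost without DMSO replicate 1 and DexKLA replicate 2 (log2 changes of 0.76 and 0.79, edgeR adjusted p of 0.0524 to 0.0826). P4HA2, the isozyme, averaged 58 ± 2.33 CPM under DMSO, 55.2 ± 2.97 under Dex, 51.2 ± 4.19 under KLA and 55.6 ± 7.67 under DexKLA, with all KLA libraries below all DMSO libraries, and was not called. AL731563.2 overlaps P4HA1 on the other strand.

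ANKRD37, an ankyrin repeat protein gene known as a HIF target (chromosome 4, 185396841 to 185400237, plus strand), had 18 to 516 counts per library. It was at 5.07, 9.69 and 9.17 CPM under DMSO, 18.9, 16.3 and 16.3 under Dex, 26, 12.1 and 28.8 under KLA and 15.8, 27.4 and 13.8 under DexKLA. All treated libraries lay above all DMSO libraries, and within KLA replicate 2 lay well below the other 2. ANKRD37 rose by 1.43 ± 0.30 on the log2 scale under KLA (2.70-fold, edgeR adjusted p = 0.0105) and by 1.14 ± 0.32 under DexKLA (2.20-fold, edgeR adjusted p = 0.0458). Under Dex alone the change was 1.04 ± 0.33 and was not called (edgeR adjusted p = 0.0811), but it was without KLA replicate 2 (log2 change 1.05, edgeR adjusted p = 0.0286) or KLA replicate 3 (log2 change 1.04, edgeR adjusted p = 0.0316). Those fits left out no Dex or DMSO library and called 2.11% and 7.12% of all genes for Dex, beside 2.05% in the main fit. The KLA call was lost without DMSO replicate 1 (log2 change 1.23, edgeR adjusted p = 0.0750). The DexKLA call was lost in 7 of 12 such fits (DMSO replicates 1, 2 and 3, Dex replicates 1 and 3 and DexKLA replicates 1 and 2), with log2 changes of 0.84 to 1.31 and edgeR adjusted p of 0.0547 to 0.288. UFSP2 overlaps ANKRD37 on the other strand.

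ADM, the gene of the vasodilator peptide adrenomedullin (chromosome 11, 10305073 to 10307397, plus strand), had 18 to 215 counts per library. Its level was 5.07, 4.84 and 5.68 CPM under DMSO, 9.98, 8.60 and 7.92 under Dex, 12.1, 7.25 and 12 under KLA and 6.85, 12.3 and 8.81 under DexKLA. Every treated library was above every DMSO library. ADM rose under KLA by 1.00 ± 0.25 on the log2 scale (2.00-fold, edgeR adjusted p = 0.0157), and its changes of 0.75 ± 0.27 under Dex and 0.79 ± 0.27 under DexKLA had edgeR adjusted p of 0.123 and 0.0904. The KLA call was lost without DMSO replicates 1 and 2 (log2 changes of 0.94 and 0.99, edgeR adjusted p of 0.0600 to 0.0800).

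**Figure D3:**
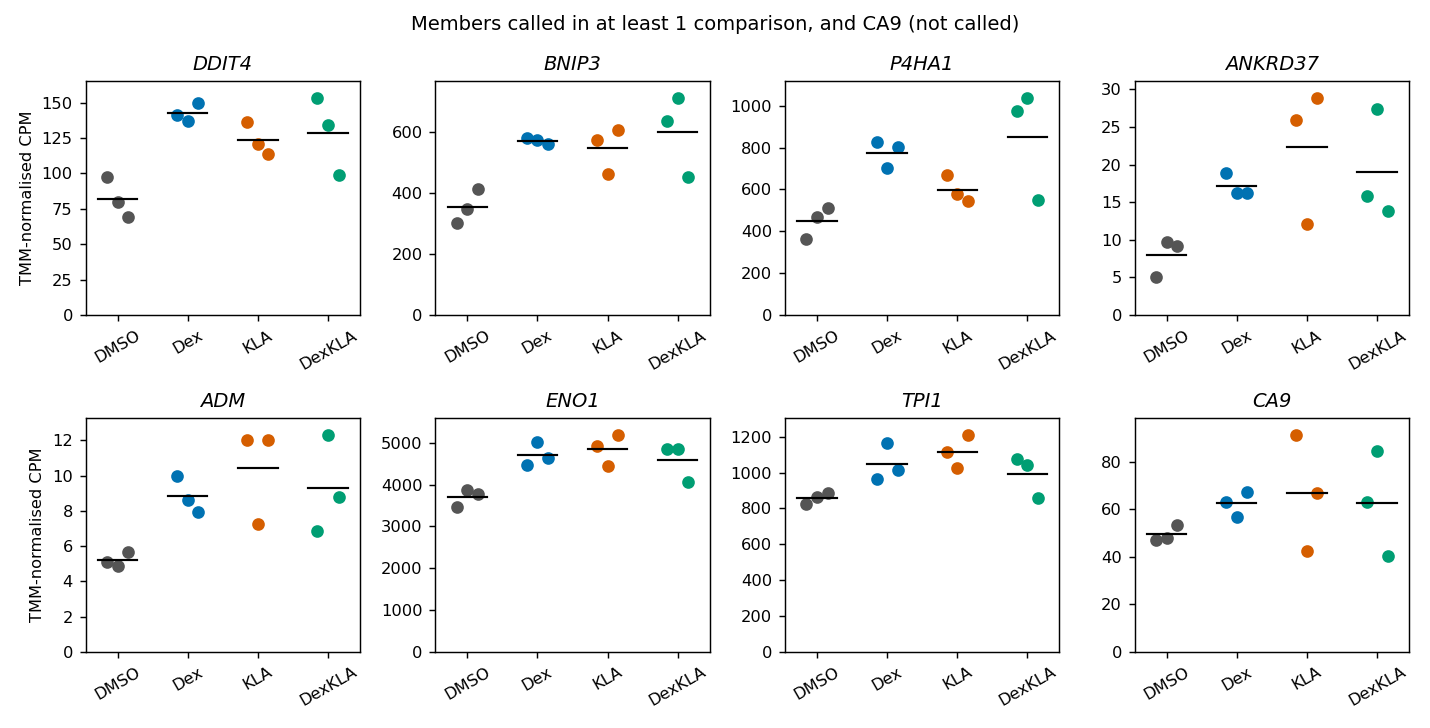
TMM-normalised CPM (y axes, each from 0) in every library of the 4 groups (x axes) for the 7 genes called in at least 1 comparison, and for CA9, which was not called. Points are libraries in replicate order and horizontal lines are group means. For DDIT4, BNIP3, P4HA1, ANKRD37, ADM and ENO1 every treated library lies above the 3 DMSO libraries, while CA9 has KLA and DexKLA libraries below them.

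The other hypoxia-responsive genes included several standard HIF targets that were not called. CA9, a carbonic anhydrase at the cell surface, was at 47, 48.1 and 53.5 CPM under DMSO, 63.2, 56.9 and 67.3 under Dex, 91.3, 42.2 and 66.8 under KLA and 63, 84.5 and 40.4 under DexKLA. Its Dex libraries all exceeded the DMSO libraries, but its KLA and DexKLA libraries ran from below to above the DMSO range, and the log2 changes were 0.32 ± 0.23, 0.43 ± 0.22 and 0.31 ± 0.23. Without KLA replicate 2, the KLA change of CA9 was called (log2 change 0.67, edgeR adjusted p = 0.0273), in a fit that called 14.4% of all genes for KLA. ARHGEF39 overlaps CA9 on the other strand. VEGFA, the angiogenic growth factor, was at 83.9, 83.6 and 93 CPM under DMSO, 82.1, 69.3 and 85.8 under Dex, 121, 84.7 and 70.9 under KLA and 79.8, 87.3 and 76.4 under DexKLA. Its groups overlapped in every comparison, at log2 changes of -0.15 ± 0.15, 0.09 ± 0.15 and -0.10 ± 0.15. ANGPTL4, a secreted inhibitor of lipoprotein lipase that glucocorticoids are known to induce, was at 19.7, 13.8 and 29.2 CPM under DMSO, 34.4, 24.5 and 27.9 under Dex, 28.2, 12.3 and 16.3 under KLA and 31.5, 39 and 17.9 under DexKLA. The DMSO libraries alone spanned 13.8 to 29.2 CPM, and the log2 changes of 0.44 ± 0.30, -0.14 ± 0.29 and 0.46 ± 0.30 were not called.

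Of the oxygen sensors, EGLN3 was at 10.1, 7.18 and 13.5 CPM under DMSO, 11.6, 8.83 and 14.1 under Dex, 15.1, 9.76 and 12.7 under KLA and 9.02, 15.3 and 6.89 under DexKLA. Every pair of groups overlapped for EGLN3, and its log2 changes were 0.11 ± 0.29, 0.30 ± 0.26 and -0.07 ± 0.28. EGLN1, the main sensor, averaged 137 ± 18.5 CPM under DMSO, 145 ± 19.2 under Dex, 147 ± 18.8 under KLA and 153 ± 22 under DexKLA. NDRG1, a stress-responsive gene, averaged 279 ± 39.4 CPM under DMSO, 221 ± 21.5 under Dex, 247 ± 62.2 under KLA and 219.8 ± 65.5 under DexKLA. All Dex libraries of NDRG1 lay below all DMSO libraries, at a log2 change of -0.34 ± 0.18 and an edgeR adjusted p of 0.283. The histone demethylase gene KDM3A and MXI1, an antagonist of MYC, had log2 changes against DMSO from -0.22 to 0.07, with overlapping groups. In all, 10 of the 15 hypoxia-responsive genes were called in none of the 3 comparisons with DMSO.

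Over all 37 genes, 13 had every Dex library above every DMSO library and 1 every Dex library below, where 14.5% and 13.6% of all genes tested did. Those counts were 8 and 1 for KLA, beside 17.9% and 18.3% of all genes, and 9 and 3 for DexKLA, beside 13.4% and 12.8%. As shares of the 37 genes, the higher counts came to 35.1%, 21.6% and 24.3% and the lower ones to 2.70%, 2.70% and 8.11%. Without DMSO replicate 1, the calls among the 37 genes fell to 1 under Dex (DDIT4), 0 under KLA and 1 under DexKLA (DDIT4 again). The calls over all genes fell with them in that fit, to 0.480%, 0.0364% and 0.349%. Without DexKLA replicate 2, none of the 37 genes was called for DexKLA against DMSO, in a fit that called 0.639% of all genes. A fit to the 6 Dex and DMSO libraries alone tested 36 of the 37 genes and called 9 higher and NDRG1 lower. Among the 9 were the glycolysis genes ENO1, SLC2A1, TPI1 and PGK1 (edgeR adjusted p of 0.0115 to 0.0467). That fit called 1348 of 12249 genes (11%) over all.

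Promoter sequence is shown for the called hypoxia-responsive genes, for ENO1 and for the uncalled HIF target CA9, so that their HIF-type core elements can be compared. RefSeq windows on GRCh38.p14 matched 34 of the 37 genes, and the 250 bases upstream of each start were searched on both strands for ACGTG and GCGTG. VEGFA, NDRG1 and BNIP3L were not matched. For 21 of the 34, the RefSeq start was that of the transcript in the deposited table. For P4HA1 these starts lay 108 bases apart, and the stretch printed below lies inside the transcript whose level is given above. In each line the sequence reads 5′ to 3′ on the gene's strand, and capitals mark ACGTG or GCGTG or, for a match on the other strand, CACGT or CACGC. For 5 genes only the element nearest the start is printed, with 10 bases on either side. The windows of P4HA1, ADM and CA9 hold 1 element each, that of ANKRD37 holds 3, among them a CACGTG, and that of ENO1 holds 2.
DDIT4 (chr10:72273674-72273919, plus strand): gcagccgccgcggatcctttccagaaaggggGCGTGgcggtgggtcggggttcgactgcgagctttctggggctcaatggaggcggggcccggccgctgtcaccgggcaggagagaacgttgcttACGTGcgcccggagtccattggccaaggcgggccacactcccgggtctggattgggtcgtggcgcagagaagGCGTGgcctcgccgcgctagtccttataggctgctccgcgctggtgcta
BNIP3 (chr10:131982014-131982173, minus strand): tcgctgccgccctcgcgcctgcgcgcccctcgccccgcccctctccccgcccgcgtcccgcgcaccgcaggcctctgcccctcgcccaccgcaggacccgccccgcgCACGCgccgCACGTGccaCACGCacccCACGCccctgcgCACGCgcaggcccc
P4HA1 (chr10:73096938-73096962, minus strand): tgatcgagctCACGTagcgagggct
ANKRD37 (chr4:185396688-185396712, plus strand): gtgtttgtgtACGTGcggccgtggc
ADM (chr11:10304962-10304986, plus strand): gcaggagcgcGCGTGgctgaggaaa
ENO1 (chr1:8878744-8878768, minus strand): agctgaggggGCGTGccccggaggc
CA9 (chr9:35673900-35673924, plus strand): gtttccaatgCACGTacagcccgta

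An element was present in 25 of the 34 matched windows (73.5%), in 6 of the 7 called genes (85.7%, TPI1 being the exception) and in 19 of the 27 others (70.4%), beside 43.2% of 35116 windows in the table, which lists starts rather than genes. The genes were chosen in part as hypoxia-responsive, and the windows were not matched for base composition. Nothing is read from the difference between these shares. CA9, which was not called, has an element a short distance before its start. The printed BNIP3 stretch holds 6 elements, among them a CACGTG, which ACGTG matches on both strands, and the DDIT4 stretch holds 3. ACGTG alone was in 19 of 34 member windows and in 18.5% of all. One exact string taken for the glucocorticoid receptor element, a pair of inverted AGAACA half-sites 3 bases apart, was in 0 member windows and in 1 of all 35116. A string this rare cannot show whether these promoters lack sites for the receptor. A single AGAACA was in 3 of 34 (8.82%), beside 12.4% of all. A match describes the letters of this window only and shows neither a site in use nor a cause.

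Combined treatment was then set against each single treatment. For DexKLA against KLA, 0 of the 37 genes were called by edgeR or by DESeq2, and edgeR called 0.653% of all genes tested. At an unadjusted p under 0.05 there were 2 (5.41%, beside 10.5% of all genes), P4HA1 with a log2 change of 0.51 ± 0.17 (edgeR adjusted p = 0.274) and ANGPTL4 with 0.60 ± 0.27 (edgeR adjusted p = 0.438). P4HA1 was higher in DexKLA replicates 1 and 2 than in every KLA library and was lower in DexKLA replicate 3 than in KLA replicates 1 and 2. Without DexKLA replicate 3, P4HA1 was called higher under DexKLA than under KLA (log2 change 0.75, edgeR adjusted p = 0.00470), in a fit that called 0.428% of all genes. For DexKLA against Dex, edgeR and DESeq2 called 0 of the 37 genes, and edgeR called 0% of all genes. ALDOA alone had an unadjusted p under 0.05 there, beside 7.1% of all genes. DDIT4 was at 129 ± 27.5 CPM under both agents, 143 ± 6.63 under Dex and 124 ± 11.4 under KLA (SD, 3 libraries each).

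The interaction is the change under both agents minus the sum of the single changes. Its median was -0.10 for the 37 genes and 0.02 for all genes tested, and under scaling by library size alone it was 0.01 and 0.13, so its sign for these genes depends on the scaling. With 1 library left out the median of the 37 genes ran from -0.18 (without DexKLA replicate 2) to -0.06 (without KLA replicate 1). None was called by edgeR, which called 0.038% of all genes, while 6 (16.2%) had an unadjusted p under 0.05, all negative, beside 22.2% of all genes. DESeq2 called 3 of the 37 genes (DDIT4, ENO1 and TPI1), beside 705 (5.35%) of all genes, and gave 5 of the 37 no adjusted p. For DDIT4 the interaction was -0.75 ± 0.20 on the log2 scale (edgeR adjusted p = 0.0630), for ANKRD37 -1.34 ± 0.41 (edgeR adjusted p = 0.0783), for ADM -0.96 ± 0.34 and for BNIP3 -0.55 ± 0.20. Without KLA replicate 2, DDIT4 (log2 change -0.76, edgeR adjusted p = 0.0494), ANKRD37 (log2 change -1.64, edgeR adjusted p = 0.0324) and ADM (log2 change -1.17, edgeR adjusted p = 0.0427) were called, in a fit that called 3.25% of all genes. Without DexKLA replicate 1, DDIT4 was called (log2 change -0.90, edgeR adjusted p = 0.0266), in a fit that called 5.3% of all genes. Each of these values uses the DMSO libraries once more, so they are not independent of the changes above. The number of genes called here moved from 0 to 1040 with the settings and is set out with the processing.

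Change and transcript length moved together across genes. The rank correlation of log2 change with length, a description across genes that share libraries, was -0.45 over all genes and -0.61 over the 37 genes for Dex, -0.47 and -0.48 for KLA and -0.18 and -0.40 for DexKLA. It was 0.49 and 0.26 for DexKLA against KLA, 0.39 and 0.38 for DexKLA against Dex and 0.58 and 0.63 for the interaction. The negative interactions at an unadjusted p under 0.05 were those of ANKRD37 (773 bases), TPI1 (1451), ADM (1486), BNIP3 (1625), DDIT4 (1739) and ENO1 (3148). With the length trend removed, the median interaction of the 37 genes was -0.10, which does not describe the genes just named. In that fit the log2 changes of BNIP3 under Dex, KLA and DexKLA were 0.57, 0.46 and 0.69, beside 0.69, 0.62 and 0.76 in the main fit. Those of DDIT4 were 0.70, 0.46 and 0.59, beside 0.80, 0.59 and 0.65. The 7 called genes had a median transcript length of 1625 bases, against 2963 for the 37 genes and 3130 for all genes tested. ANKRD37, the highest change under KLA, also has the shortest transcript, 773 bases. With a smooth trend on length removed from every library, 11 of the 13 calls were kept, some at smaller changes. Under KLA, ANKRD37 moved from 1.43 to 1.12 and ADM from 1.00 to 0.82 (edgeR adjusted p = 0.0461), while ENO1 was at 0.40 beside 0.39. PGK1 (4799 bases) was newly called, under KLA (log2 change 0.47, edgeR adjusted p = 0.0255) and DexKLA (log2 change 0.41, edgeR adjusted p = 0.0447). That fit called 8.08% of all genes for KLA and 6.21% for DexKLA. TPI1 under KLA was lost, its log2 change moving from 0.38 to 0.19 (edgeR adjusted p = 0.184), and so was ANKRD37 under DexKLA, at 0.97 beside 1.14 (edgeR adjusted p = 0.0627). Within libraries, the correlation of level with length, relative to the mean over libraries, ran from 0.19 to 0.40 for DMSO, -0.53 to 0.14 for Dex, -0.53 to -0.15 for KLA and -0.13 to 0.39 for DexKLA.

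**Figure D4:**
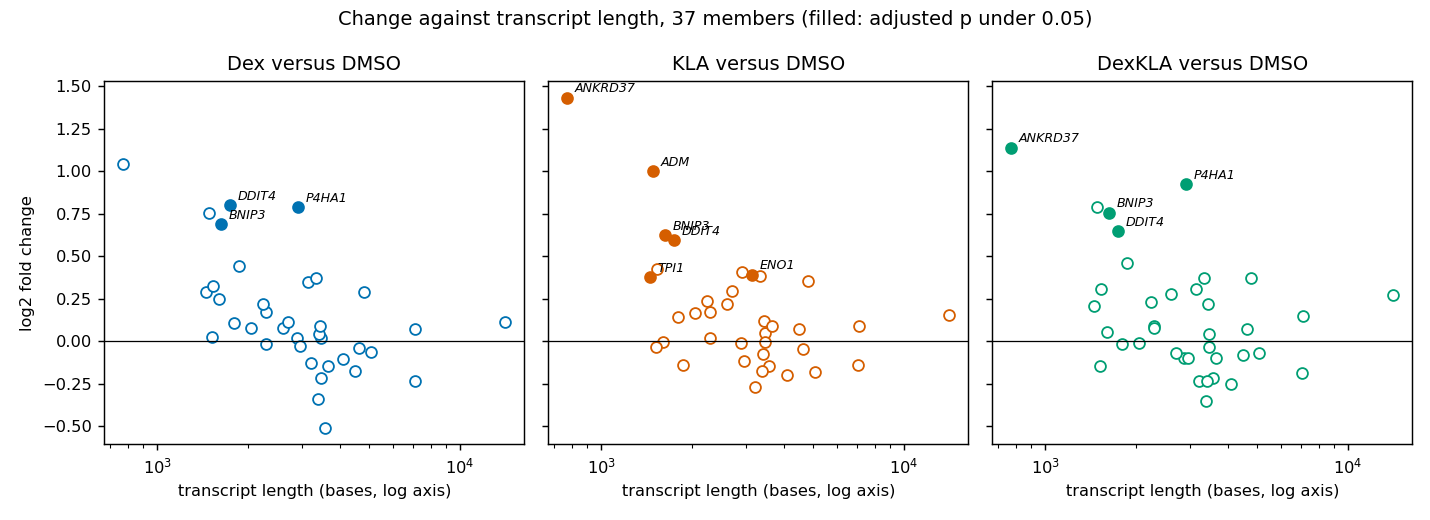
Fitted log2 fold change against DMSO (y axes) of the 37 genes by transcript length in bases (x axes, log scale) for Dex, KLA and DexKLA, with filled, named points for genes called at an adjusted p under 0.05. The called genes have transcripts of 773 (ANKRD37) to 3148 bases (ENO1), and no filled point lies to the right of these.

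Libraries of the same group differed in a shared direction for these genes. DexKLA replicate 2 was the highest of its 3 libraries for 29 of the 37 genes (78.4%, against 30.2% of all genes) and the lowest for 0. KLA replicate 1 was the highest of its group for 23 (62.2%, against 30.1%), and KLA replicate 2 was the highest for 0 and the lowest for 26. DMSO replicate 3 was the highest for 24 (64.9%, against 32.8%). Among the 15 hypoxia-responsive genes alone, DexKLA replicate 2 was highest for 14 and DexKLA replicate 3 lowest for 12, and their median deviations from the group mean were 0.33 and -0.38 on the log2 scale. CA9 showed the spread plainly, at 84.5 CPM in DexKLA replicate 2 and 40.4 in replicate 3, and at 91.3 in KLA replicate 1 and 42.2 in replicate 2. In each case the range within the group was wider than the difference between its mean and the DMSO mean. These genes are not independent of one another, and no test was made of the pattern.

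**Figure D5:**
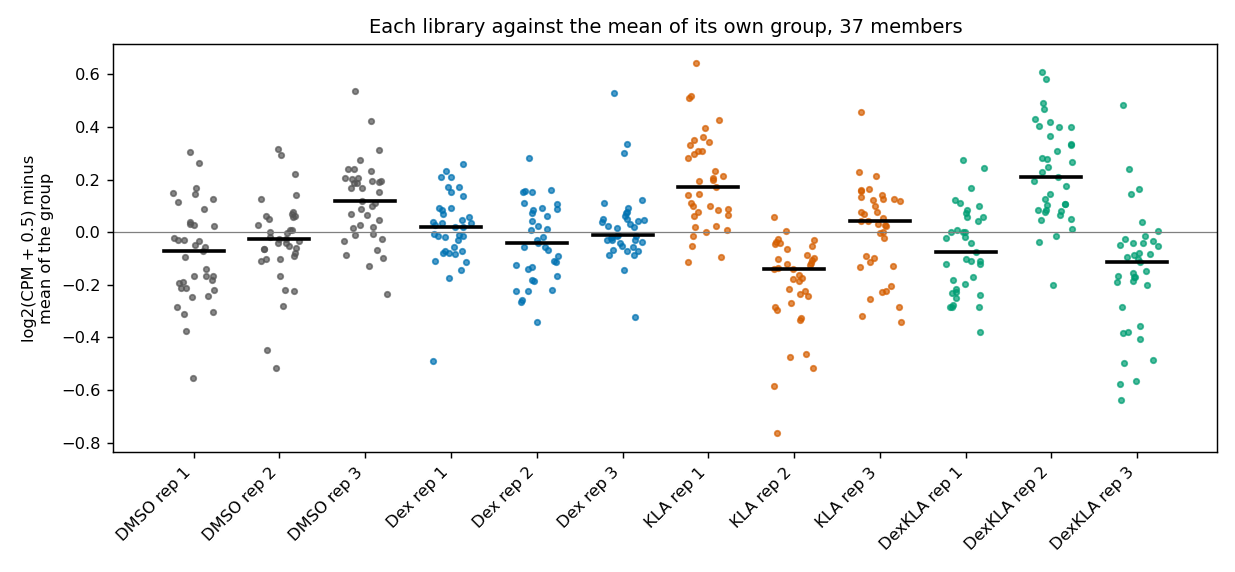
Log2 of CPM plus 0.5 of each of the 37 genes minus the mean of its group (y axis) in each of the 12 libraries (x axis), with 1 point per gene and a line at the median. The median lies at 0.21 in DexKLA replicate 2 and 0.17 in KLA replicate 1, and at -0.11 in DexKLA replicate 3 and -0.14 in KLA replicate 2.

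The HIF machinery itself was compared through a list of 13 components, of which 12 were tested. The edgeR fit called 2 of them under Dex, 4 under KLA and 1 under DexKLA, beside 2.05%, 13.7% and 4.22% of all genes in either direction. Under KLA, HIF1A fell by 0.38 on the log2 scale (edgeR adjusted p = 0.0293) and EPAS1, the gene of HIF-2 alpha, fell by 0.50 (edgeR adjusted p = 0.0210), while ELOB and RBX1, subunits of the VHL ubiquitin ligase, rose by 0.62 ± 0.12 and 0.66 ± 0.13. HIF1A averaged 89.2 ± 4.65 CPM under DMSO, 75.1 ± 8.35 under Dex, 68.7 ± 2.82 under KLA and 79 ± 8.90 under DexKLA, and EPAS1 averaged 109 ± 2.13 CPM under DMSO, 82.7 ± 9.35 under Dex, 76.9 ± 15.4 under KLA and 88.8 ± 12 under DexKLA. Under Dex, ELOB rose by 0.52 ± 0.12 and HIF3A was called higher, and under DexKLA HIF3A was the 1 gene of the 12 that edgeR called. DESeq2 called RBX1 under Dex and under DexKLA, and it gave 1 of the 12 no adjusted p in either. HIF3A, whose products include inhibitors of HIF, averaged 0.226 ± 0.0516 CPM under DMSO, 7.90 ± 0.133 under Dex, 0.107 ± 0.0406 under KLA and 6.10 ± 1.03 under DexKLA. It had 1 to 3 counts in each library without Dex, so its fitted fold change depends on the prior count and is not given. HIF3A was also called higher under DexKLA against KLA. It passed the filter on low counts only through the libraries with Dex, where it was high, so its calls add nothing to these levels. Without DMSO replicate 1 the HIF3A calls against DMSO were kept, with the same limit. The other calls against DMSO in this list were lost in that fit (edgeR adjusted p of 0.0724 to 0.117). Their log2 changes stayed close to those above: 0.52 for ELOB under Dex, and under KLA 0.62 for ELOB, 0.68 for RBX1, -0.42 for HIF1A and -0.51 for EPAS1.

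Of 24 further genes of glycolysis and pyruvate use, 20 were tested. None was called under Dex (6 had an unadjusted p under 0.05, and DESeq2 called 3). Under KLA 3 rose and 1 fell, and under DexKLA 3 rose, beside 13.7% and 4.22% of all genes called in either direction. The risers in both were SLC2A3, a high-affinity glucose transporter (0.49 ± 0.15 and 0.64 ± 0.15), PDHB, a pyruvate dehydrogenase subunit (0.44 ± 0.11 and 0.41 ± 0.11), and MPC2, of the mitochondrial pyruvate carrier (0.55 ± 0.11 and 0.40 ± 0.12), and DLAT, another subunit of the dehydrogenase complex, fell by 0.42 under KLA. All 7 of these calls were lost without DMSO replicate 1 (edgeR adjusted p of 0.0725 to 0.285), at log2 changes of 0.35 and 0.50 for SLC2A3, 0.35 and 0.32 for PDHB, 0.46 and 0.32 for MPC2 and -0.37 for DLAT. The liver glucose transporter SLC2A2 ran from 71.3 to 105 CPM over the 12 libraries and was not called. PDK4, a known glucocorticoid target, had 0 to 2 counts in a library and was not tested.

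Of 32 further hypoxia-responsive genes, 30 were tested, with 0 called under Dex, 4 higher under KLA, and 1 higher and 1 lower under DexKLA, shares near those of all genes (13.7% for KLA and 4.22% for DexKLA, either direction). For Dex, 4 of the 30 had an unadjusted p under 0.05 and DESeq2 called 2. FAM162A, a mitochondrial gene, rose by 0.70 ± 0.17 under KLA and 0.59 ± 0.17 under DexKLA, and INSIG2, TMEM45A and the erythropoietin gene EPO rose under KLA by 0.63 ± 0.17, 0.48 ± 0.15 and 0.40 ± 0.11. HMOX1, heme oxygenase 1, fell by 0.80 under DexKLA. Of the 7 gluconeogenic genes tested, PCK1, which makes phosphoenolpyruvate, fell by 0.96 under Dex, 0.83 under KLA and 1.00 under DexKLA (edgeR adjusted p of 0.0134, 0.0109 and 0.00838). G6PC, the glucose 6-phosphatase gene, fell by 1.10 under KLA. Without DMSO replicate 1 each of these calls in the further hypoxia-responsive and gluconeogenic genes was lost (edgeR adjusted p of 0.0724 to 0.319), with the direction kept. In that fit the log2 change of PCK1 was -0.72, -0.59 and -0.76, that of G6PC -0.84, that of FAM162A 0.53 under KLA and 0.42 under DexKLA, and that of EPO 0.46. The median log2 changes of these lists against DMSO ran from -0.23 (gluconeogenic genes, DexKLA) to 0.08 (HIF components, Dex).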

How the data were processed

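Total RNA of 12 HepG2 libraries was sequenced. The values per RefSeq transcript that the authors deposited run in steps of 0.5 and were taken to be expected counts, with 32.6% to 36.4% of the values in a library not whole. Per the submitters' processing notes, Trimmomatic, BWA 0.7.17 and HOMER 4.10 were used with hg38, with no role given. Strand and counting rules were not given in the sources used here.

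Counts were rounded to whole numbers. Of 70507 transcripts, 406 without a symbol (1.71% to 2.55% of a library's total) were left out, and 1 transcript per symbol was kept, the one with the highest total. Tests used edgeR 4.0.16, limma 3.58.1 and the data.table package at version 1.17.8 in R 4.3.3: filterByExpr with a minimum count of 10, TMM scaling, a quasi-likelihood fit with 1 mean per group (8 residual degrees of freedom) and Benjamini-Hochberg adjustment over 13166 genes. Called means an adjusted p under 0.05. Levels are TMM-normalised CPM, and log2 changes are given with their standard errors. Deviations within a group used log2 of CPM plus 0.5. DESeq2 1.42.0 and the other alternatives are described at the end. The code was tested on simulated data. No 2 libraries of a group agreed within counting noise (chi-square per degree of freedom of 1.88 or more).

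The 37 genes and the other lists were chosen with earlier results of these data known. Values in every library are given for each called gene and for HK2, PKLR, PKM, LDHA, GAPDH, PDK1, SLC2A1, VEGFA, CA9, EGLN3, ANGPTL4 and DDIT4. Of the other lists, up to 6 called genes with the smallest adjusted p are named, with HIF1A, EPAS1, HIF3A, SLC2A2 and PDK4. Other genes of that rule are not reported here.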

Additional observations from a re-analysis of the deposited data

How the results depend on the processing

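None of the 13 calls among the 37 genes changed sign under any alternative run. All 13 were kept with DESeq2 size factors, a filter of at least 50 reads in 3 libraries, no filter, only the 6 libraries compared, thinning and each gene's longest transcript. DESeq2's own test kept the 12 for which it gave an adjusted p. Library size alone kept 10 and removal of the length trend 11. Leaving out DMSO replicate 1 and KLA replicate 3 together, chosen after seeing the data, kept 5.

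The number of the 37 genes called for Dex against DMSO was 3, and it was 6 with no filter, 10 with the 6 libraries alone and 1 to 4 with 1 library left out. For KLA it was 6, against 10 with no filter, 0 without the pair of libraries and 0 to 9 with 1 library left out. For DexKLA it was 4, against 7 with no filter and 0 to 6 with 1 library left out. For DexKLA against KLA it was 0, against 2 with no filter and 0 to 1 with 1 library left out, and for DexKLA against Dex it was 0 throughout. For the interaction it was 0, against 3 with DESeq2, 4 with no filter, 1 after thinning and 0 to 3 with 1 library left out. With no filter, 4.56% of all genes were called for Dex, 11.1% for KLA, 4.96% for DexKLA, 1.02% for DexKLA against KLA and 5.22% for the interaction. With 1 library left out, the first 3 shares ran from 0.435% to 7.12%, 0.0364% to 18.4% and 0.349% to 11.4%. The last 2 ran from 0.378% to 0.731% and 0% to 5.3%. Without the pair, 0.0377% were called for KLA.

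The number of all genes called for Dex was 270, and it was 650 with DESeq2, 909 with no filter, 1348 with the 6 libraries alone and 56 to 915 with 1 library left out. For KLA it was 1806, against 1064 with the length trend removed, 5 without the pair and 5 to 2363 with 1 library left out. For DexKLA it was 556, against 920 with DESeq2, 987 with no filter, 183 without the pair and 48 to 1461 with 1 library left out. For DexKLA against KLA it was 86, against 204 with no filter, 38 with the 6 libraries alone and 52 to 94 with 1 library left out. For DexKLA against Dex it was 0, against 12 with no filter, and 0 with any 1 library left out. For the interaction it was 5, against 0 with DESeq2 size factors, 230 with library size alone, 705 with DESeq2, 1040 with no filter, 2 with the length trend removed, 84 after thinning, 0 without the pair and 0 to 681 with 1 library left out. Where a fit left an arm with 2 libraries, the spread was pooled over the groups. The cause of these differences was not tested.

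With library size alone, genes called higher made up 26.3% of calls for Dex, 23.7% for KLA and 27.7% for DexKLA, against 59.3%, 56.7% and 67.3% with TMM.

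Deviations within groups gave no sign that the replicate numbers pair the libraries. With 3 libraries per group they cannot exclude it, and the labels do not say. Deviations of same-numbered libraries correlated at -0.33 to 0.20 over 18 pairs, 1 of them above 0.1, and 1 of 18 correlated best with its own number. Across numbers, Dex replicate 2 correlated at 0.47 with KLA replicate 3 and at -0.33 with KLA replicate 1. A replicate block gave 134 called genes for Dex, 1360 for KLA, 325 for DexKLA, 74 for DexKLA against KLA, 0 for DexKLA against Dex and 0 for the interaction. With the block, 3, 4, 3, 0, 0 and 0 of the 37 genes were called. The block with the length trend removed gave 165, 808, 657, 102, 0 and 0 called genes, and it kept 10 of the 13 calls, as the block alone did.

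Precision was limited by 3 libraries per group and, for HK1, PFKM, ANKRD37, ADM and PFKP, by counts as low as 3, 8, 18, 18 and 20 in a library.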
